A study of Mus musculus with 6 samples.

Results

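Respiratory chain subunits, encoded in the nucleus and in mitochondrial DNA, were examined in primary mouse macrophages challenged with *Candida albicans*. The genes were chosen by name: protein-coding genes whose symbols begin with Ndufa, Ndufb, Ndufc, Ndufs, Ndufv, Uqcr, Cox4 to Cox8, Atp5 or mt-, and the succinate dehydrogenase genes *Sdha*, *Sdhb*, *Sdhc* and *Sdhd*. This took 107 of 54532 genes in the deposited table, 94 of them nuclear and 13 mitochondrial. By name it also took 11 genes that do not code for subunits: 8 Ndufaf assembly factors of complex I, *Cox7a2l*, *Ndufa4l2* and *Atp5s*. *Ndufa4* is counted with complex IV, where its product is bound. The symbol *Atp5o* had 2 entries, and the second had no reads.

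The macrophages came from METRNL+/+ mice (WT) and from METRNL-/- mice, knockouts (KO) of the gene for the secreted protein meteorin-like, and all cells had been cultured with the fungus for 6 h. There were 3 libraries per genotype and none from unchallenged cells. The table holds FPKM, fragment counts divided by gene length and by a size set for each library. This size was not the total of reads in genes. In KO replicate 1 it was 12793110, below the 14772746 reads in its genes. In the other libraries it was above them, by most in WT replicate 1 (16034203 against 14309247). The labels give neither the tissue source of the macrophages nor the age of the mice nor the structure of the *Metrnl* allele, and separate animals or cultures are not stated for the replicates. The p-values therefore reflect only how far these libraries scatter, which may be technical. *Metrnl* RNA was 93.5, 63.2 and 69.8 FPKM in WT and 51.2, 63.6 and 62.8 FPKM in KO, so RNA of the targeted gene was still present in the libraries labelled KO.

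The respiratory chain passes electrons from NADH (complex I) and succinate (complex II) to ubiquinone, on to cytochrome c through complex III, and to oxygen at complex IV; the proton gradient built up on the way drives ATP synthase (complex V). Mitochondrial DNA encodes a small set of membrane core subunits of complexes I, III, IV and V, and all other subunits, complex II included, are nuclear. Macrophages activated by microbial products are known to shift from respiration toward glycolysis, and succinate oxidation and complex I are known sources of reactive oxygen species in them.

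Libraries held 11026529 to 15724897 reads in genes. In FPKM of the mitochondrial mRNAs, WT replicate 1 and KO replicate 1 stood apart from the other replicates of their groups. Results on these mRNAs are therefore given with and without both. Markers of the cell types were checked. Of 13 macrophage markers, 5 rose and 2 (*Fcgr1* and *Marco*) fell in KO, and their summed level was 5159 to 5998 FPKM in WT and 9023 to 9726 FPKM in KO. All 9 B cell markers fell, from a sum of 552 to 711 FPKM in WT to 29.3 to 37.6 FPKM in KO. All 4 tested T and NK cell markers of 8, 5 of 7 dendritic cell markers, 2 of 6 tested neutrophil markers, 3 of 6 tested mesothelial and fibroblast markers and all 4 tested mast cell markers of 5 also fell. Their part in the results on respiratory chain genes was not tested. In these bulk samples, fewer cells of a type and less RNA per cell cannot be told apart. The labels' extraction text speaks of retinas; the summed retinal markers were at most 1.25 FPKM.

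Most nuclear subunit genes had small positive log2 fold changes in KO against WT, while 11 of the 12 tested mitochondrial mRNAs had negative ones that did not pass the test. Of the 107 genes, 98 passed the filter of a mean of 0.5 FPKM over all libraries, and of these 16 were higher in KO and 1 was lower (limma, adjusted p below 0.05 over 11689 genes). Among all genes tested, 15.7% were higher and 12.4% lower. The 16 higher genes are 16.3% of the tested respiratory chain genes, close to the background, and the 1 lower gene is 1.02%. Without *Cox6a2*, which passed the filter only through KO, 15 of 97 genes were higher (15.5%). Groups did not overlap in 29 of the 98 genes with KO higher (29.6%, against 25.7% of all genes) and in 7 with KO lower (7.14%, against 19.9%). The median log2 fold change (KO minus WT, computed on log2(FPKM + 1)) was 0.10 over the 98 genes and 0.03 over all genes tested. It was 0.11 over the 86 tested nuclear genes, of which 66 had a positive sign. Over the 12 tested mitochondrial genes it was -0.21, and 1 had a positive sign. Of all 11689 genes tested, 6291 had a positive sign. The background changed with the low-value filter. With the cutoff raised to 2 FPKM, 22.5% of all genes were higher, beside 16 of the 86 respiratory chain genes of both genomes that remained. The median log2 fold change was then 0.08 over all genes and 0.11 over these respiratory chain genes.

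The number of calls depended on single libraries and on scaling. Leaving out one library at a time, with 7.8% to 14.4% of all genes called higher, gave 13, 7 and 10 higher genes without WT replicates 1, 2 and 3, and 12, 6 and 5 without KO replicates 1, 2 and 3. The lower count was 4 without WT replicate 1 and 2 without WT replicate 2, and it was 1 in the other cases. Rescaling each library to a common sum (TPM) left 2 higher genes, *Uqcrq* and the barely read *Cox6a2*, and 2 lower genes, against 4.64% and 9.93% of all genes, and quantile normalization gave 6 higher and 8 lower, against 14.5% and 11.8%. Over all genes the split was 1833 higher and 1445 lower with the deposited scaling, 542 and 1161 with TPM, and 1731 and 876 when genes under a mean of 2 FPKM were left out. *Uqcrq* and *Ndufa4* were called in the same direction in all 14 alternatives, and 4 further genes, *Ndufa2*, *Ndufa11*, *Ndufs4* and *Ndufs5*, were called in all 6 fits that leave out 1 library. The other 11 calls were lost in at least 1 of these 6 fits.

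**Figure D1:**
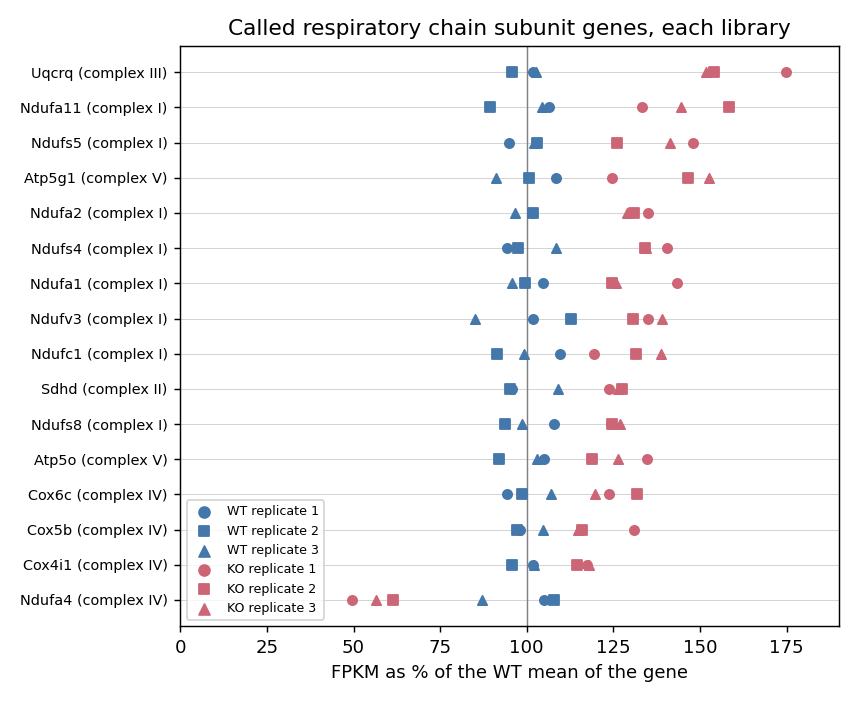
FPKM of 16 of the 17 called genes in each library, as a percent of the gene's WT mean (horizontal axis), with genes on the vertical axis; blue points are WT libraries, red points KO libraries, and shapes mark the replicate number. *Cox6a2*, which had 5 reads in WT, is left out; in each gene shown the 3 KO points lie to one side of the 3 WT points, and *Ndufa4* is the gene with KO to the left.

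*Ndufa4* was the only respiratory chain gene called lower. It codes for a small protein once assigned to complex I and now placed in cytochrome c oxidase. Its FPKM was 12.3, 12.7 and 10.2 in WT and 5.83, 7.2 and 6.62 in KO. Every KO library was below every WT library. The mean fell from 11.7 ± 1.32 to 6.55 ± 0.689 FPKM (SD over 3 libraries; 656 and 397 reads), 1.79-fold lower in KO, with a log2 fold change of -0.75 ± 0.11 (SE; limma, adjusted p = 0.00477). None of its 50-base words occurs in a transcript of another gene, in the GENCODE M21 annotation. Its paralog *Ndufa4l2*, which replaces it under hypoxia, had 7 reads in WT and 9 in KO and was not tested. The *Ndufa4* gene lies at chr6:11900292-11907497 on the minus strand of GRCm38.

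The sequence upstream of *Ndufa4* is shown beside that of *Ndufa11*, a gene that rose, because nuclear respiratory chain genes are the textbook targets of nuclear respiratory factor 1 (NRF1). The *Ndufa4* stretch is chr6:11907498-11907700 (minus strand), bases -250 to -48 from the RefSeq start. The *Ndufa11* stretch is chr17:56717686-56717761 (plus strand), bases -76 to -1, with the core of the NRF1 motif in capitals. Both come from RefSeq on GRCm38.p6 and leave out annotated exons.
Ndufa4: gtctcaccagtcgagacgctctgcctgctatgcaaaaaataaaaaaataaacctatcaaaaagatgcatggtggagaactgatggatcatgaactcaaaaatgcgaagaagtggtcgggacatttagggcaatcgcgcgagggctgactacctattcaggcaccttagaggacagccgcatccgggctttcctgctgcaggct
Ndufa11: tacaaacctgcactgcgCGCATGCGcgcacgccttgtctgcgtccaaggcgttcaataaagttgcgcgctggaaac

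The core letters of the NRF1 motif, CGCATGCG, searched on both strands in the 250 bases upstream of the start, were in 8 of the 74 nuclear symbols with a RefSeq promoter (10.8%) and in 1.75% of 27025 genes; 19 nuclear symbols had no entry. With any middle base, CGCNTGCG, which includes the first form, they were in 20 of 74 (27.0%) and in 7.65% of all genes. Of the 12 called genes with an entry, *Ndufa11*, *Ndufs5* and *Sdhd* held this wider form, and in *Ndufa11* it lies at -59 to -52. The first form, CGCATGCG, was in 1 of these 12, *Ndufa11*. The other genes that held it, *Atp5g2*, *Atp5j*, *Atp5k*, *Atp5l*, *Cox6a1*, *Ndufa8* and *Ndufaf4*, were not called. The GABPA motif CCGGAAGT was in 3 of 74 (4.05%) and 3.23% of all genes. The first letters of the YY1 motif, AAGATGGCG, were in 1 of 74 (1.35%) and 0.710% of all genes. The *Ndufa4* window held none of these letters. A match describes the letters only.

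*Uqcrq*, which codes for a small subunit of complex III, had the lowest adjusted p of the respiratory chain genes. Its FPKM was 20.2, 19.0 and 20.4 in WT and 34.8, 30.6 and 30.1 in KO. All 3 KO libraries lay above all 3 WT libraries. The mean was 19.9 ± 0.738 FPKM in WT (SD, n = 3) and 31.8 ± 2.53 FPKM in KO (n = 3), 1.6-fold higher, with a log2 fold change of 0.65 ± 0.08 (SE; limma, adjusted p = 0.00243). It lies at chr11:53427922-53430831, and none of its 50-base words is shared with another gene. It was the 1 called gene among 8 tested nuclear genes of complex III (12.5%, against 15.7% of all genes higher), whose median log2 fold change was 0.07. *Uqcrfs1*, the Rieske iron-sulfur protein and the nuclear complex III gene with the highest mean, had 49.2 ± 3.85 FPKM in WT and 51.4 ± 3.88 FPKM in KO, and its groups overlapped (adjusted p = 0.659).

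Complex I, NADH dehydrogenase, held 8 of the 16 higher genes. Of its 35 tested nuclear genes 8 rose (22.9%, against 15.7% of all genes) and none fell, and the median log2 fold change was 0.19. The count was 5 without KO replicate 2 and 4 without KO replicate 3, beside 7.8% and 7.82% of all genes higher in those fits. The 8 calls were lost with TPM, where 4.64% of all genes were higher. With the low-value filter raised to 2 FPKM, the count was 9, but the background share was then 22.5% of all genes. The 8 rises were in 7 of 28 accessory subunits, which surround the catalytic core, and in 1 of 7 core subunits. Groups did not overlap in 15 genes with KO higher (42.9%, against 25.7% of all genes) and in 4 with KO lower (11.4%, against 19.9%).

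*Ndufa2*, an accessory subunit of the matrix arm, had 43.8, 44.0 and 41.8 FPKM in WT and 58.4, 56.6 and 55.6 FPKM in KO. The replicates of each group lay close together and the groups were well apart, with a 1.32-fold higher mean in KO (log2 fold change 0.39 ± 0.06, limma adjusted p = 0.00608). *Ndufs5*, an accessory subunit of the intermembrane space side, had 11.3, 12.2 and 12.2 FPKM in WT and 17.6, 15.0 and 16.8 FPKM in KO. The groups did not overlap, and the mean was 1.39-fold higher (0.44 ± 0.08, limma adjusted p = 0.0104). Of its 50-base words 31.1% also occur in the gene BC002163, so its reads are uncertain to that extent.

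*Ndufs4*, an accessory subunit whose loss causes Leigh-like disease in mice, had 5.14, 5.30 and 5.90 FPKM in WT and 7.65, 7.30 and 7.32 FPKM in KO. All KO values were above all WT values (1.36-fold, log2 fold change 0.39 ± 0.07, limma adjusted p = 0.0109). *Ndufa11*, an accessory subunit of the membrane arm, had 9.54, 8.01 and 9.36 FPKM in WT and 12.0, 14.2 and 12.95 FPKM in KO. Again no KO library reached down to WT (1.45-fold, 0.49 ± 0.09, limma adjusted p = 0.0125). *Ndufa1*, a small membrane arm subunit and the complex I nuclear gene with the highest level, had 48.4, 46.0 and 44.2 FPKM in WT and 66.2, 57.6 and 58.1 FPKM in KO. KO replicate 1 was the highest of them (1.31-fold, 0.38 ± 0.08, limma adjusted p = 0.0166).

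*Ndufs8*, a core subunit that carries iron-sulfur clusters, had 22.0, 19.1 and 20.2 FPKM in WT and 25.4, 25.5 and 25.9 FPKM in KO. The KO libraries lay close together above WT (1.25-fold, 0.31 ± 0.07, limma adjusted p = 0.0206). *Ndufv3*, an accessory subunit of the flavoprotein part, had 5.76, 6.38 and 4.81 FPKM in WT and 7.63, 7.38 and 7.85 FPKM in KO. WT varied more than KO and the groups did not overlap (1.35-fold, 0.38 ± 0.10, limma adjusted p = 0.033). *Ndufc1*, a small membrane arm subunit, had 6.13, 5.11 and 5.56 FPKM in WT and 6.69, 7.37 and 7.77 FPKM in KO. Its lowest KO library was just above its highest WT library (1.3-fold, 0.33 ± 0.09, limma adjusted p = 0.036).

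Values of some core subunits that did not pass the test, named after their values were seen, are as follows. *Ndufv1* and *Ndufv2*, which bind FMN and an iron-sulfur cluster, had log2 fold changes of 0.19 and 0.20 with groups that did not overlap (limma adjusted p = 0.092 and 0.15). *Ndufs3* had -0.22, with every KO library below every WT library (adjusted p = 0.189). *Ndufs1* and *Ndufs7* had 0.06 and 0.19. *Ndufb2* was not tested: it had 66 reads in WT and 85 in KO over a deposited length of 5628 bases. FPKM levels between genes depend on this length.

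Complex II, succinate dehydrogenase, links the tricarboxylic acid cycle to the chain. Of its 4 genes 1 was called (25.0%, against 15.7% of all genes higher): *Sdhd*, a membrane anchor subunit. The call was lost without WT replicate 2, KO replicate 2 or KO replicate 3. *Sdhd* had 26.9, 26.7 and 30.6 FPKM in WT and 34.7, 35.8 and 35.4 FPKM in KO. The KO libraries were tightly grouped above WT (1.26-fold, log2 fold change 0.33 ± 0.07, limma adjusted p = 0.0211). *Sdhb*, the iron-sulfur subunit, had 13.3, 9.67 and 10.9 FPKM in WT and 14.9, 15.0 and 13.8 FPKM in KO. Its groups did not overlap, but it missed the threshold (0.35 ± 0.11, limma adjusted p = 0.0639). *Sdhc*, the other anchor, was 12.3 ± 1.13 and 13.4 ± 0.227 FPKM (adjusted p = 0.298), and *Sdha*, the flavoprotein, was 16.1 ± 1.3 and 16.8 ± 1.3 FPKM with overlapping groups (adjusted p = 0.625). *Sdhd* had the highest level of the 4.

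In complex IV, cytochrome c oxidase, 4 of 14 tested nuclear genes rose (28.6%, against 15.7% of all genes). *Ndufa4* fell (7.14%, against 12.4% of all genes lower), and the median log2 fold change was 0.09. Without *Cox6a2*, 3 of 13 rose (23.1%). These calls did not survive leaving out WT replicate 1, WT replicate 2, KO replicate 2 or KO replicate 3. *Cox4i1*, the main isoform of the largest nuclear subunit, had 105.02, 98.8 and 105.3 FPKM in WT and 121, 118 and 122 FPKM in KO. The rise was small and the groups did not overlap (1.17-fold, 0.22 ± 0.06, limma adjusted p = 0.046). *Cox6c* had 10.1, 10.6 and 11.5 FPKM in WT and 13.3, 14.2 and 12.9 FPKM in KO (1.25-fold, 0.30 ± 0.07, limma adjusted p = 0.0271). *Cox5b*, which binds zinc on the matrix side, had 19.96, 19.8 and 21.3 FPKM in WT and 26.6, 23.6 and 23.4 FPKM in KO. Both *Cox6c* and *Cox5b* were above WT in every KO library, the latter by 1.21-fold (0.26 ± 0.08, limma adjusted p = 0.0475). The calls of *Cox4i1* and *Cox5b* were lost whichever library was left out. The gene *Emc8* on the other strand overlaps the *Cox4i1* gene by 352 bases, and 14.7% of the 50-base words of *Cox4i1* are shared with it. Of the 50-base words of *Cox5b*, 25.9% are shared with Gm11273.

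The subunit isoforms of complex IV that are typical of heart and muscle, testis or lung were low. *Cox6a2*, the heart and muscle isoform of subunit 6A, had 1, 0 and 4 reads in WT and 7, 10 and 10 in KO, and it was called (log2 fold change 0.70 ± 0.16, limma adjusted p = 0.0227). It passed the filter only through KO, where it reached 0.981 FPKM, and it overlaps *Itgad* on the other strand; 7 skeletal and heart muscle markers summed to at most 0.10 FPKM. The liver isoform *Cox6a1* had 118 ± 12.5 FPKM in WT and 125 ± 5.65 FPKM in KO. *Cox8a* had the highest level of any nuclear respiratory chain gene, 152 ± 5.84 and 162 ± 10.5 FPKM, while *Cox8b* had 2 reads in each group and *Cox8c* none. *Cox4i2* was 1.98 ± 0.992 and 1.16 ± 0.520 FPKM with overlapping groups. *Cox7a2* had 41.1 ± 1.80 and 45.4 ± 4.88 FPKM, its muscle counterpart *Cox7a1* 0.464 ± 0.0143 and 0.753 ± 0.275 FPKM, and *Cox7a2l*, a factor that joins complexes III and IV, 57.8 ± 3.23 and 67.3 ± 3.02 FPKM. *Cox6b1* had 74.6 ± 1.94 and 72.4 ± 4.91 FPKM and *Cox7b* 27.3 ± 0.527 and 25.7 ± 2.29 FPKM, while their testis isoforms *Cox6b2* and *Cox7b2* had 11 reads or fewer over all libraries.

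In complex V, ATP synthase, 2 of 16 tested nuclear genes rose (12.5%, against 15.7% of all genes) and none fell, with a median log2 fold change of 0.11. Both calls were lost without WT replicate 2, WT replicate 3, KO replicate 2 or KO replicate 3. The membrane c-ring is encoded by 3 genes for an identical mature protein. *Atp5g1* had 4.28, 3.98 and 3.59 FPKM in WT and 4.92, 5.79 and 6.03 FPKM in KO. It was 1.41-fold higher with no overlap (0.41 ± 0.10, limma adjusted p = 0.0236). *Atp5g2* was 28.1 ± 2.12 and 28.8 ± 1.44 FPKM and *Atp5g3* 36.4 ± 2.75 and 36.6 ± 1.72 FPKM, neither passed the test, and both turned negative under quantile normalization and TPM, where the call of *Atp5g1* held under the former and was lost under the latter. The difference between the 3 genes was not tested. *Atp5o*, of the stalk that joins the catalytic head to the membrane part, had 8.82, 7.75 and 8.67 FPKM in WT and 11.3, 9.99 and 10.6 FPKM in KO. KO was above WT in all libraries (1.27-fold, 0.31 ± 0.08, limma adjusted p = 0.031). The antisense gene Gm15976 covers part of *Atp5o*, and strand use in counting is not given in the sources used here. *Atp5b*, the catalytic beta subunit and the complex V gene with the highest level, was 113 ± 3.43 and 123 ± 10.95 FPKM (adjusted p = 0.343).

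**Figure D2:**
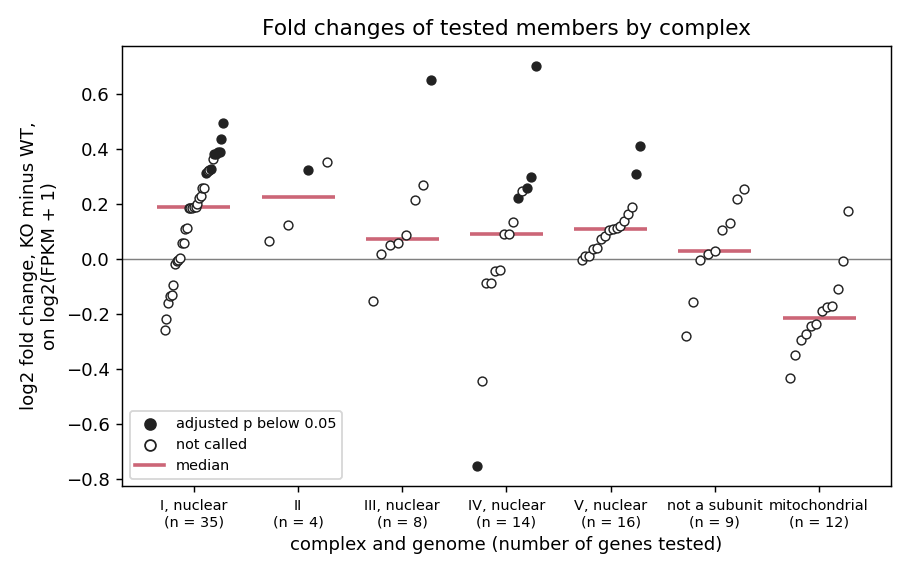
Log2 fold change of the tested genes (vertical axis, KO minus WT on log2(FPKM + 1)), one point per gene, by complex and genome; filled points passed the test at an adjusted p below 0.05 and bars are medians. The median is 0.19 in nuclear complex I and -0.21 in the mitochondrial genes, where no point is filled.

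Of the 13 mitochondrial mRNAs, 12 were tested and none was called by limma on log2 FPKM, with 0 at an unadjusted p below 0.05 and 0 called by limma-voom on reads. All 11 tested mRNAs of the strand that carries most genes had a negative log2 fold change, with a median of -0.24. WT replicate 1 was the lowest WT library in all 11, and KO replicate 1 was the highest KO library in all but mt-Atp6; the groups overlapped in all 11. Without both of these libraries the median over the 12 was -0.49, and 9 of the 12 were called lower, beside 16.3% of all genes in that fit. These 2 libraries are extremes in the very mRNAs tested, so this count is a description and no support for a difference. Leaving out WT replicate 1 alone, mt-Co2, mt-Co3 and mt-Atp6 were called lower, beside 11.4% of all genes in that fit. Quantile normalization called 3 of the 12 lower and TPM called 1, beside 11.8% and 9.93% of all genes. Under both scalings the 11 kept a negative sign, while without WT replicate 2 the signs of mt-Nd5, mt-Nd4l and mt-Atp6 turned positive.

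The summed FPKM of the mitochondrial mRNAs was 3.90, 5.12 and 5.01 times that of the nuclear respiratory chain genes in WT and 4.09, 3.62 and 3.44 times in KO. In this ratio WT replicate 1 lay below KO replicate 1, so the groups overlapped. As a share of the summed FPKM of all genes, the mitochondrial mRNAs were 2.33%, 2.69% and 2.55% in WT. In KO they were 2.07%, 2.12% and 2.07%. Every KO share lay below every WT share, and KO replicate 1 was not apart in it. Non-overlap with KO lower was seen in 19.9% of all genes in FPKM. The share was not tested, so it is a description. On the same measure the nuclear respiratory chain genes were 0.599%, 0.525% and 0.508% in WT. They were 0.507%, 0.586% and 0.600% in KO, and these groups overlapped. In FPKM the mitochondrial ribosomal RNAs were also lowest in WT replicate 1 among the WT libraries. The 12S rRNA was 219.9, 328.7 and 297.8 FPKM in WT and 294.3, 233.7 and 223.9 FPKM in KO. Its groups overlapped as well.

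Complex I contributes 7 of the mitochondrial genes. mt-Nd1 had 1025, 1339.8 and 1384 FPKM in WT and 1199.9, 952 and 939.9 FPKM in KO, and mt-Nd2 had 339, 465 and 469 FPKM in WT and 401, 339 and 332 FPKM in KO. Both are membrane arm core subunits, and both followed the pattern of a low WT replicate 1 and a high KO replicate 1 (log2 fold changes -0.27 ± 0.17 and -0.24 ± 0.16, or -0.52 and -0.48 without these 2 libraries). mt-Nd4 had 424, 536 and 547 FPKM in WT and 512, 423 and 401 FPKM in KO, and mt-Nd5, another proton-pumping subunit, had 421, 495 and 505 FPKM in WT and 509, 455 and 448 FPKM in KO. The difference of mt-Nd5 was near 0, at -0.01 ± 0.11 (95% interval -0.27 to 0.25), and that of mt-Nd4 was -0.17 ± 0.15; without both replicates 1 they were -0.15 and -0.39. mt-Nd3 had 13.6, 17.6 and 18.6 FPKM in WT and 15.3, 11.7 and 11.5 FPKM in KO, and mt-Nd4l had 7.56, 13.2 and 8.07 FPKM in WT and 9.47, 8.96 and 7.41 FPKM in KO. Their groups overlapped, and those of mt-Nd4l did so also without both replicates 1. Their log2 fold changes went from -0.35 ± 0.15 and -0.11 ± 0.20 to -0.60 and -0.31 without them.

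mt-Nd6, the one mRNA encoded on the opposite strand, was the exception in sign. It had 328, 379 and 398 FPKM in WT and 419, 425 and 399 FPKM in KO. The KO libraries were above the WT libraries, the closest being 398 FPKM in WT and 399 FPKM in KO, with a log2 fold change of 0.17 ± 0.10 that missed the threshold (95% interval -0.06 to 0.41, limma adjusted p = 0.239), and 0.08 without both replicates 1. Relative to mt-Nd5, its neighbour with which it shares 14 bases, mt-Nd6 was 77.9%, 76.6% and 78.8% in WT and 82.3%, 93.4% and 89.2% in KO. This ratio did not overlap between the groups. Non-overlap of this kind was seen in 25.7% of all genes with KO higher, and the ratio was chosen after its values were seen, so it is a description. Reads from mt-Nd6 and from RNA of the other strand at the same place cannot be told apart without strand.

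mt-Co1 and mt-Cytb had the highest levels of all respiratory chain genes. mt-Co1, the catalytic subunit of complex IV, had 3365, 4039.9 and 4151 FPKM in WT and 3823, 3194 and 3118 FPKM in KO, and mt-Cytb, the central subunit of complex III, had 1230.2, 1646 and 1640.0 FPKM in WT and 1496, 1177 and 1133 FPKM in KO. Their log2 fold changes were -0.19 ± 0.15 and -0.24 ± 0.17 with overlapping groups, and -0.38 and -0.51 without both replicates 1. mt-Co2, which takes electrons from cytochrome c, had 50.6, 90.3 and 76.6 FPKM in WT and 63.5, 45.3 and 48.7 FPKM in KO, and mt-Co3 had 33.3, 61.6 and 62.0 FPKM in WT and 49.2, 38.9 and 35.7 FPKM in KO. In each of the 2 genes WT replicates 2 and 3 were above all KO libraries and WT replicate 1 was not. mt-Atp6, the proton channel subunit of ATP synthase, had 27.8, 55.5 and 50.8 FPKM in WT and 39.5, 33.7 and 40.8 FPKM in KO. The log2 fold changes of mt-Co2, mt-Co3 and mt-Atp6 were -0.43 ± 0.23, -0.29 ± 0.26 and -0.18 ± 0.26, and -0.81, -0.71 and -0.51 without both replicates 1. mt-Atp8 had 3 reads in WT and 1 in KO and was not tested.

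**Figure D3:**
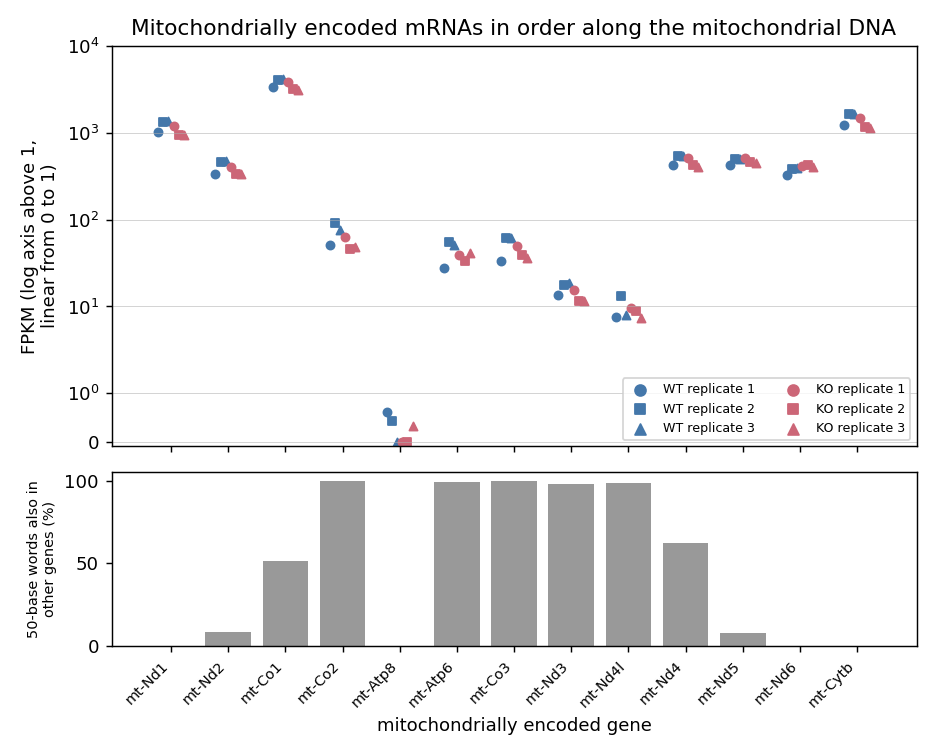
Upper panel: FPKM (log axis above 1, linear from 0 to 1) of the 13 mitochondrial mRNAs in each library, in their order along the mitochondrial DNA, with WT in blue, KO in red and shapes for replicate numbers. Lower panel: percent of each gene's 50-base words that also occur in transcripts of other genes; the 5 genes above 97% are among the 6 with the lowest levels, the other being mt-Atp8.

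Levels of mitochondrial mRNAs differed by orders of magnitude, and 5 of the 6 lowest belonged to genes whose sequence is nearly all present in a nuclear copy. mt-Co2, mt-Co3, mt-Atp6, mt-Nd3 and mt-Nd4l, with 98.0% to 100% of their 50-base words in other transcripts, had WT means of 9.59 to 72.5 FPKM, while mt-Nd1, mt-Nd2, mt-Nd5, mt-Nd6 and mt-Cytb, with 0% to 8.19%, had means from 368 FPKM upward. mt-Co1 and mt-Nd4 share 51.1% and 62.2%. The copies are annotated pseudogenes in a row on the minus strand of chromosome 1, from 24611535 to 24616197 (GRCm38), and they carried FPKM of their own. Gm28661, the copy of mt-Co2, had 58.3 FPKM in WT and 48.3 FPKM in KO on average, beside 72.5 and 52.5 FPKM of mt-Co2. Gm10925, Gm28437 and Gm10222, the copies of mt-Atp6, mt-Co3 and mt-Nd4l, had WT means of 67.3, 50.5 and 13.7 FPKM. How the submitters' counting treated reads that match both places is not given in the sources used here. Its part in these levels was not tested. mt-Atp8 was low with 0% shared, but words were compared among annotated transcripts only. Bases of chromosome 1 between the annotated copies were not searched, so this 0% does not show that mt-Atp8 lacks a nuclear copy.

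The first 60 bases of mt-Co2 and mt-Nd3 and of their copies show how close they are. Gm28661 is identical to mt-Co2 over all 681 aligned bases, and Gm28438 differs from mt-Nd3 by 1 substitution in 345, T3C counted from the first base of mt-Nd3, which is in capitals.
mt-Co2: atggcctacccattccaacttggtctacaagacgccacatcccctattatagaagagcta
Gm28661: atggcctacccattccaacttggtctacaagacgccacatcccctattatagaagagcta
mt-Nd3: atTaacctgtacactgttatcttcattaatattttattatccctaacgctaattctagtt
Gm28438: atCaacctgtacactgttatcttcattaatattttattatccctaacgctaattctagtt

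**Figure D4:**
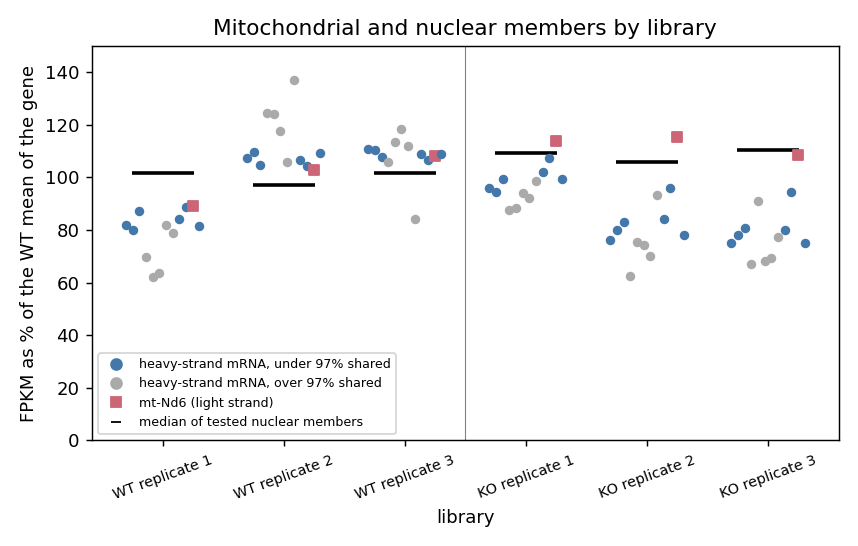
FPKM of 12 mitochondrial mRNAs in each library as a percent of the gene's WT mean (vertical axis), with libraries on the horizontal axis; blue circles are genes with under 97% and grey circles genes with over 97% shared words, red squares are mt-Nd6 and black bars the median of the tested nuclear genes. The median of the nuclear genes is 97.1% to 102% in WT and 106% to 110% in KO, while the circles are low in WT replicate 1 and in KO replicates 2 and 3.

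Genes that act around the chain were counted in lists by function. Assembly factors, which build the complexes without staying in them, were not called for complexes I to IV: none of 13 tested for complex I, of 2 for complex II, of 5 for complex III and of 19 for complex IV (limma; 1, 0, 0 and 2 at an unadjusted p below 0.05; 1, 0, 0 and 0 by limma-voom). *Ndufaf4*, the complex I factor with the smallest p, was 0.814 ± 0.0566 FPKM in WT and 0.497 ± 0.118 FPKM in KO (log2 fold change -0.28 ± 0.10, limma adjusted p = 0.0826). For complex V, 2 of 3 rose. *Atpif1*, the inhibitor of ATP synthase, was 6.45 ± 1.21 FPKM in WT and 10.4 ± 0.792 FPKM in KO (1.61-fold, 0.62 ± 0.13, limma adjusted p = 0.0179), and *Tmem70*, an ATP synthase assembly factor, rose 1.33-fold (adjusted p = 0.0315).

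In a list of genes for cytochrome c, heme lyase and coenzyme Q, 2 of 15 tested genes rose and 1 fell. This list also held *Cyc1*, which codes for cytochrome c1 of complex III and was not taken by the name rule. *Coq10a* and *Coq10b*, which bind coenzyme Q, were 2.28-fold and 1.80-fold higher (limma adjusted p = 0.00822 and 0.0019), and *Coq2*, which attaches the side chain in coenzyme Q synthesis, fell from 2.33 ± 0.154 to 1.53 ± 0.205 FPKM (adjusted p = 0.0226). *Cycs*, cytochrome c, named after its values were seen, was 19.5 ± 1.03 and 18 ± 3 FPKM (adjusted p = 0.511).

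Of 22 tested genes for mitochondrial transcription, replication and RNA maturation, 4 rose and 3 fell. *Tfam*, which packages mitochondrial DNA and starts its transcription, was 1.60 ± 0.121 FPKM in WT and 2.71 ± 0.135 FPKM in KO (1.70-fold, log2 fold change 0.51 ± 0.08, limma adjusted p = 0.00546). *Polrmt*, the mitochondrial RNA polymerase, fell from 1.66 ± 0.404 to 0.907 ± 0.137 FPKM (log2 fold change -0.47 ± 0.14, limma adjusted p = 0.0444). *Hsd17b10*, a subunit of mitochondrial RNase P, and *Mterf3*, a regulator of mitochondrial transcription, rose 1.35-fold and 1.44-fold, as did *Fastkd5* by 1.77-fold. *Elac2*, which trims the 3′ ends of tRNA precursors, and *Pnpt1*, polynucleotide phosphorylase, had log2 fold changes of -0.57 ± 0.10 and -0.70 ± 0.15 (limma adjusted p = 0.0102 and 0.0168). *Polrmt*, *Pnpt1* and *Fastkd5* were named after their values were seen. None of 8 tested regulators of mitochondrial biogenesis was called by limma (3 at an unadjusted p below 0.05, 2 by limma-voom); *Gabpa* and *Gabpb1*, which form nuclear respiratory factor 2, had 0.21 ± 0.06 and 0.27 ± 0.09 (limma adjusted p = 0.0521 and 0.0647).

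In the list for the tricarboxylic acid cycle, which supplies the chain with NADH and succinate, 4 of 19 tested genes rose and none fell. This list also held *Pdha1*, *Pdhb*, *Dlat*, *Pdhx* and *Acod1*, which do not code for enzymes of the cycle itself. The summed FPKM of the whole list was 599.6, 729 and 803 in WT and 641, 462 and 448 in KO, and its groups overlapped. The part of single genes in this sum was not tested. *Dld*, *Dlst* and *Ogdh* are the parts of the 2-oxoglutarate dehydrogenase complex, and they rose 1.65-fold, 1.26-fold and 1.21-fold (limma adjusted p = 0.00648, 0.011 and 0.0269). *Idh2*, the mitochondrial NADP-linked isocitrate dehydrogenase, rose 1.39-fold (adjusted p = 0.0255). Of 16 tested genes for quality control, fission and fusion, 4 rose: *Hspa9*, the heat shock chaperone of the mitochondrial matrix, went from 101 ± 3.25 to 180 ± 2.82 FPKM (1.77-fold, log2 fold change 0.82 ± 0.06, limma adjusted p = 0.00057), and *Mff*, *Bnip3* and *Mfn1* rose 1.35-fold, 1.24-fold and 1.31-fold. Of 7 tested carriers and channels, the 3 that rose were the voltage-dependent anion channels of the outer membrane, *Vdac1*, *Vdac2* and *Vdac3*, by 1.22-fold, 1.40-fold and 1.22-fold (limma adjusted p = 0.0471, 0.0179 and 0.0348). These counts stand beside 15.7% higher and 12.4% lower over all genes tested. With the low-value filter raised to 2 FPKM, the shares over all genes were 22.5% and 11.4%.

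These list counts depended on single libraries too, and so did the shares over all genes. With 1 library left out, 7.8% to 14.4% of all genes were higher and 7.28% to 11.4% lower. With TPM 4.64% were higher, and with quantile normalization 14.5%. The count of 3 higher carriers and channels became 1 without WT replicate 1, 2 or 3 or without KO replicate 1, and all 3 calls were lost without KO replicate 2 or KO replicate 3, with TPM and with quantile normalization. The count of 4 higher tricarboxylic acid cycle genes became 2 without WT replicate 3 and 1 without KO replicate 2 or KO replicate 3, and 1 with TPM. The count of 4 higher genes for quality control, fission and fusion became 2 without WT replicate 2, KO replicate 2 or KO replicate 3, and 1 with TPM. In mitochondrial transcription and RNA maturation, the count of 3 lower genes became 1 without WT replicate 3, KO replicate 2 or KO replicate 3, and the 4 higher calls were lost with TPM. The calls of *Atpif1* and *Tmem70* were lost without KO replicate 2 or KO replicate 3 and with TPM, and 1 of them remained without WT replicate 1, WT replicate 3 or KO replicate 1. The 2 higher calls in the list for cytochrome c, heme lyase and coenzyme Q held in every fit that left out 1 library and with TPM. The call of *Coq2* was lost without WT replicate 2, WT replicate 3 or KO replicate 3.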

How the data were processed

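Total RNA, taken up in Trizol, was made into Illumina TruSeq libraries, per the labels' protocols. The authors deposited FPKM values with gene coordinates and lengths; the build is GRCm38 (mm10), per the submitters' processing notes. For aligner, counting, annotation release and strand the entry is: not given in the sources used here. Multiplying FPKM by the deposited length gave whole steps in each library for 100% of values (tolerance 0.05), and these are the reads quoted.

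Genes averaging 0.5 FPKM or more over 6 libraries (11689) were tested on log2(FPKM + 1) with limma 3.58.1 (R 4.3.3; genotype alone, eBayes with trend), with Benjamini-Hochberg adjusted p below 0.05. Log2 fold changes understate changes of low genes; folds are ratios of mean FPKM, and intervals are 95%. The fit was tested on simulated data. Groups and replicate numbers came from sample titles. Every called gene, the mitochondrial genes, isoform pairs, the gene with the highest mean in each complex, the succinate dehydrogenase genes and up to 4 genes per related list with the smallest p were eligible for naming. The members and lists were chosen with earlier results of these data known. Words of 50 bases were compared among GENCODE M21 transcripts. Tried as alternatives were another pseudocount (0.1), no low-value filter or one at 2 FPKM, quantile normalization, TPM, a replicate block, fewer libraries and, chosen after seeing the data, limma-voom on the reads.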

Additional observations from a re-analysis of the deposited data

How the results depend on the processing

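Over the 85 results recomputed, 922 of 1175 alternative values kept direction and side of the threshold, or stayed near the value given. Against 16 higher and 1 lower respiratory chain genes, the higher count was 8 with no filter on low values and 6 with quantile normalization. It was 2 with TPM, 1 with the replicate block and 5 to 13 with 1 library left out. The shares of all genes called higher in these fits were, in the same order, 4.34%, 14.5%, 4.64%, 4.1% and 7.8% to 14.4%. The lower count was 8 with quantile normalization, 2 with TPM and 2 with limma-voom. It was 1 to 4 with 1 library left out and 11 without replicate 1 of both groups. The shares of all genes called lower were, in the same order, 11.8%, 9.93%, 13.4%, 7.28% to 11.4% and 16.3%. The median of 0.10 became 0.033 with quantile normalization and 0.028 with TPM. The count over all genes, 3278, was 1703 with TPM, 1083 with the replicate block and 1763 to 3018 with 1 library left out; with no filter, 1237 genes were higher and 1187 lower. The cause was not tested, apart from fewer libraries or more genes tested where the alternative itself sets them.

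Same-numbered replicates did not deviate together (correlations of -0.50, -0.19 and -0.16), so the numbers were not taken as pairs, and the replicate block, which called 479 genes higher and 604 lower, is given only here.

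Sign changes were listed for the genes that the naming rule takes. Of these, 13 turned sign under some alternative, and none of the 13 had been called; genes outside that rule also turned sign and are not listed. With quantile normalization they were *Cox8a* -0.078, *Cox6a1* -0.066, *Cox7a2* -0.030, *Atp5g3* -0.18, *Atp5g2* -0.13, *Sdha* -0.036, *Uqcrfs1* -0.12, *Atp5b* -0.048 and *Atpaf2* 0.030. With TPM they were *Atp5g3* -0.072, *Atp5g2* -0.046, *Sdha* -0.016 and *Uqcrfs1* -0.024. Without replicate 1 of both groups those taken by the rule were *Atp5g2* -0.049, *Uqcrfs1* -0.030 and *Atpaf2* 0.037. With 1 library left out the ranges that crossed 0 were *Atp5g2* -0.020 to 0.085, *Atp5g3* -0.041 to 0.065, *Atpaf2* -0.14 to 0.083, *Uqcc3* -0.0060 to 0.19, mt-Nd5 -0.089 to 0.042, mt-Nd4l -0.24 to 0.12 and mt-Atp6 -0.48 to 0.0074.

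The edgeR test on recovered reads was not run, because the deposited unit is FPKM. Depth limits genes with few reads, such as *Cox6a2* with 5 in WT and *Ndufaf4*.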
